A study of Mus musculus with 21 samples.

Results

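The antibody-treated tumours were 10 of the 21 tumours profiled: 5 from mice given anti-PD1 alone and 5 from mice given anti-PD1 with lenvatinib (combination). The 11 antibody-free tumours were 6 from placebo mice and 5 from mice given lenvatinib alone, with arms read from the sample titles. The comparison is the factorial main effect of the antibody, the mean of the anti-PD1 and combination arms minus the mean of the placebo and lenvatinib arms, in which each lenvatinib level has the same weight. Every tumour grew from Hepa1-6, an established mouse hepatoma line, under the skin of a female C57BL/6J mouse that was 5 to 6 weeks old when injected, so the tumours did not grow in liver. Mice were assigned to an arm at random when the tumour reached 200 mm3. The antibody, clone J43, was injected into the abdomen at 10 mg/kg every 3 days for 5 doses. Lenvatinib, a kinase inhibitor of VEGF and FGF receptors, was given by mouth at 10 mg/kg each day. Placebo mice received the drug vehicle and a polyclonal IgG, and the labels name a control IgG for no other arm. Tumours were collected on day 13, 1 day after the antibody had last been given and 2 h after the final lenvatinib dose. Total RNA of 30 mg of tumour was hybridized to Clariom S mouse arrays.

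PD-1, encoded by Pdcd1, is an inhibitory receptor that appears on T cells after activation. Its ligands PD-L1 (Cd274) and PD-L2 (Pdcd1lg2) sit on tumour cells, macrophages and dendritic cells, and their binding recruits phosphatases that damp signals from the T cell receptor and CD28. An antibody to PD-1 keeps the ligands from binding. Interferon gamma made by T cells induces Cd274 itself, the chemokine Cxcl9 and the antigen presentation genes, which is why these genes are commonly read beside T cell genes after the antibody is given. An array measures transcripts and not whether the antibody occupies its receptor.

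All values are log2 signals, and a log2 difference of 1 is 2-fold. Array medians lay between 5.32 and 5.49, and precision is limited by how many arrays there are. Hybridization controls, which are spiked in equal amounts, read 11.2 to 11.6 on 6 arrays (4 without the antibody, and with it anti-PD1 mouse 1 and combination mouse 1) and 10.1 to 10.7 on the other 15. The interquartile range was 2.41 to 2.82 on those 6 arrays and 3.00 to 3.25 on the others. Of the liver markers, Alb (albumin) had arm means of 10.4 to 12.4 and Afp (alpha-fetoprotein) 8.94 to 11.5. The coagulation inhibitor Serpinc1 had arm means of 3.29 to 3.62, below the median of 4.08 of the negative control probes. Genes of skeletal muscle were highest in 5 tumours, of which 3 were without the antibody (placebo mice 1 and 5, lenvatinib mouse 4) and 2 with it (anti-PD1 mouse 2, combination mouse 2). These tissue pieces hold many cell types, and in such bulk samples fewer cells of a type and less RNA per cell cannot be told apart.

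No gene was called higher or lower in the antibody-treated tumours. In limma, with Benjamini-Hochberg adjustment over 22206 probe sets, 0 passed an adjusted p of 0.05 in either direction (0%), and the smallest adjusted p was 1.00. At an unadjusted p under 0.05, 175 probe sets were higher with the antibody (0.788%) and 162 were lower (0.730%), 337 in all (1.52%), where an even spread of p-values would put 1110. At an unadjusted p under 0.01 there were 36, and under 0.001 there were 0. For no probe set did all 10 antibody-treated tumours lie above, or all 10 below, all 11 antibody-free tumours.

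The differences were small as well as uncalled. The median difference over all probe sets was -0.01, the standard deviation of the differences was 0.18, and the median standard error was 0.17. The 95% interval of the difference lay within 2-fold in both directions for 20737 probe sets (93.4%) and within 1.5-fold for 14960 (67.4%). These shares describe mostly dim probe sets, because 17052 (76.8%) stayed below the 95th percentile of the negative controls in every arm. They were not computed for brighter probe sets alone. A difference of 2-fold or more was estimated for 15 probe sets, 12 lower and 3 higher with the antibody. The 3 higher were Ngp, a neutrophil granule protein, Cd55, an inhibitor of complement, and Slc12a2, an ion cotransporter, named here because the count is small. Of the variance between tumours, the antibody took a mean share of 3.53% per probe set, lenvatinib 5.15% and the difference of the antibody effect between lenvatinib levels 6.32%, where each of the 20 degrees of freedom would take 5.00% if all shared equally.

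**Figure D1:**
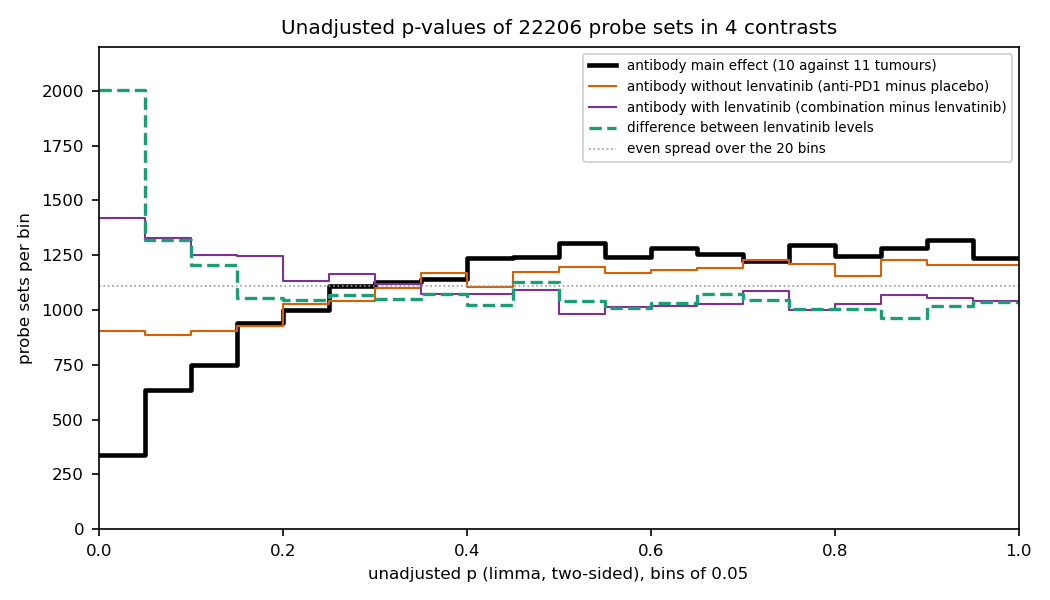
Number of probe sets (y axis) in each of 20 bins of the unadjusted p (x axis) for the antibody main effect, its 2 parts and their difference, with a dotted line at an even spread of 1110 per bin. The main effect has 337 probe sets in the lowest bin, and the difference between lenvatinib levels has 2002.

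The main effect averages an antibody difference in mice without lenvatinib (anti-PD1 minus placebo) and an antibody difference in mice with lenvatinib (combination minus lenvatinib). These share no tumour. Without lenvatinib, 0 probe sets passed the adjusted threshold (0% in each direction), and at an unadjusted p under 0.05 307 were higher with the antibody (1.38%) and 596 lower (2.68%), 903 in all (4.07%). With lenvatinib, 0 passed (0%), and at the same unadjusted threshold 860 were higher (3.87%) and 561 lower (2.53%), 1421 in all (6.40%). Both parts thus held more small p-values than their average, the first below and the second above an even spread of 1110.

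The antibody differences pointed in opposite directions at the 2 lenvatinib levels for most probe sets. Across 22206 probe sets, which are not independent of each other, the Pearson correlation of the 2 differences was -0.47 and Spearman's rho -0.32, and 9243 (41.6%) had the same sign. Of the 596 probe sets lower with the antibody without lenvatinib, 532 (89.3%) lay above 0 with lenvatinib, with a median of -0.78 in the first and 0.54 in the second. Of the 307 higher without lenvatinib, 81 (26.4%) lay above 0 with it. At an unadjusted p under 0.05 in both, 236 probe sets had opposite signs and 5 had the same sign. Among the 236, 192 were lower without lenvatinib and higher with it, and 44 went the other way. Without the 6 arrays with bright controls the correlation was -0.35, with 384 of opposite and 28 of the same sign, and without the 5 tumours rich in muscle genes the counts were 66 and 3.

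The difference between the lenvatinib levels was tested directly, and no probe set passed. The smallest adjusted p was 0.15 in limma, with 1266 probe sets at an unadjusted p under 0.05 in the positive direction (5.70%, the antibody difference more positive with lenvatinib) and 736 in the negative (3.31%). This test depended on single tumours: 320 probe sets passed without combination mouse 1, 81 without lenvatinib mouse 5 and 7 without anti-PD1 mouse 4. It also depended on the weighting of arrays, with 1691 probe sets passing when arrays were weighted by their fit and 707 passing for the antibody with lenvatinib. The 6 arrays with bright controls, combination mouse 1 among them, had weights of 0.18 to 0.64, and the other 15 weights of 0.54 to 3.63. Without those 6 arrays 0 probe sets passed for the difference between levels, at a smallest adjusted p of 0.087 in limma. The 5 anti-PD1 tumours lay above all 6 placebo tumours for 20 probe sets (0.0901%) and below for 83 (0.374%), and combination tumours above all lenvatinib tumours for 90 (0.405%) and below for 107 (0.482%). The opposition is given below as values per tumour, with no call.

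**Figure D2:**
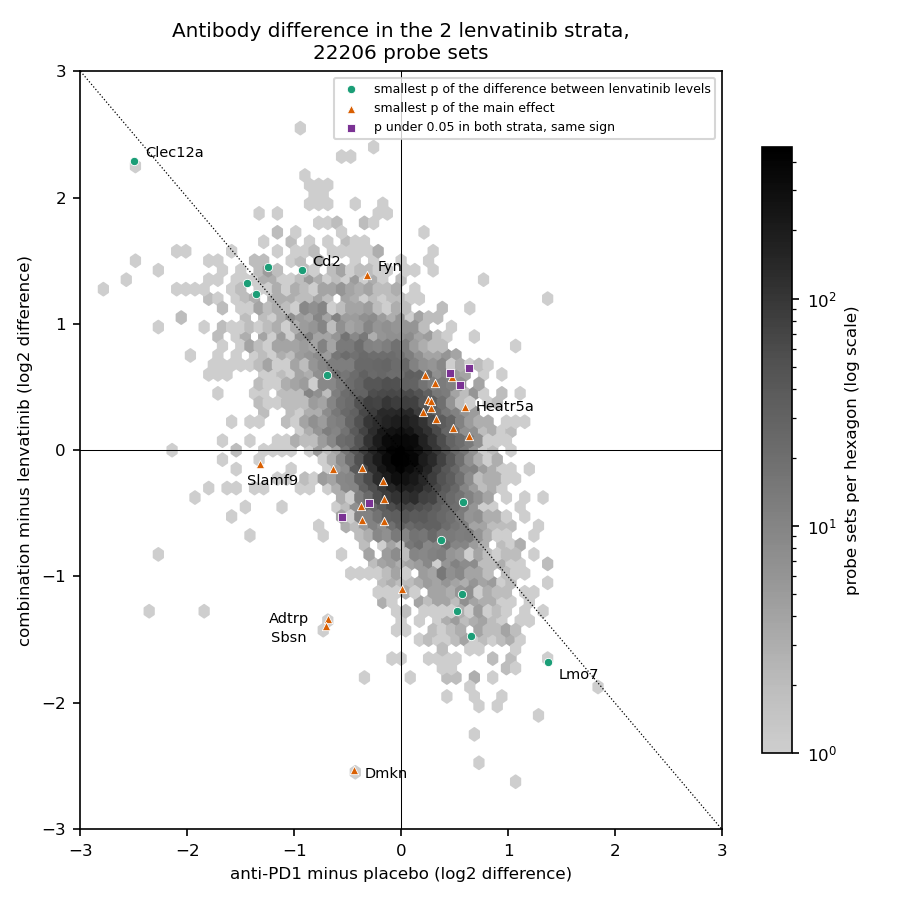
Antibody difference without lenvatinib (x axis, anti-PD1 minus placebo) against that with lenvatinib (y axis, combination minus lenvatinib), both in log2, for 22206 probe sets as grey hexagons shaded by their number, with named genes as coloured symbols and the line of equal and opposite differences dotted. The cloud slopes downward (Pearson r -0.47), and 9243 probe sets lie in the quadrants of equal sign.

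Pdcd1, the antibody's target, read 4.38 to 7.16 (median 6.28) in the 11 antibody-free tumours and 3.63 to 7.59 (median 5.95) in the 10 with the antibody, a difference of -0.16 ± 0.36 (SE), with a 95% interval of -0.92 to 0.60. Anti-PD1 tumours read 5.23, 3.63, 5.59, 6.31 and 5.56, placebo tumours 6.41, 5.79, 6.98, 6.11, 7.16 and 5.84. Combination tumours read 5.04, 7.29, 6.90, 6.37 and 7.59, and lenvatinib tumours 4.38, 5.21, 6.28, 6.36 and 6.96. So the antibody tumours held both the lowest and the highest value, the difference was -1.12 without lenvatinib and 0.80 with it, and the main difference is their mean. Its arm means of 5.26 to 6.64 lay below the 95th percentile of the negative controls (7.35). The sign of the main difference was not stable: it was 0.04 without anti-PD1 mouse 2 or without combination mouse 1.

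Cd274 read 7.96 to 10.3 (median 9.23) without the antibody and 6.62 to 9.54 (median 9.004) with it. The difference was -0.40 ± 0.28 (unadjusted p = 0.17), and unlike Pdcd1 it had 1 sign at both lenvatinib levels, -0.55 and -0.25. Anti-PD1 mouse 2 was the lowest of all tumours, and without it the difference was -0.19. Pdcd1lg2 differed by -0.16 ± 0.52, the mean of -1.13 without lenvatinib and 0.81 with it, and by 0.22 without anti-PD1 mouse 2. The 2 groups overlapped for all 3 genes. Of the phosphatases that PD-1 recruits, Ptpn11 (SHP-2) differed by 0.17 ± 0.13 and Ptpn6 (SHP-1) by 0.02 ± 0.33. The score of the 6 genes for PD-1 ligands and partners, the list average of values taken relative to each gene's own mean in all 21 tumours, differed by -0.05 ± 0.22. All 6 were measured, 4 lay above 0 and 0 passed.

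**Figure D3:**
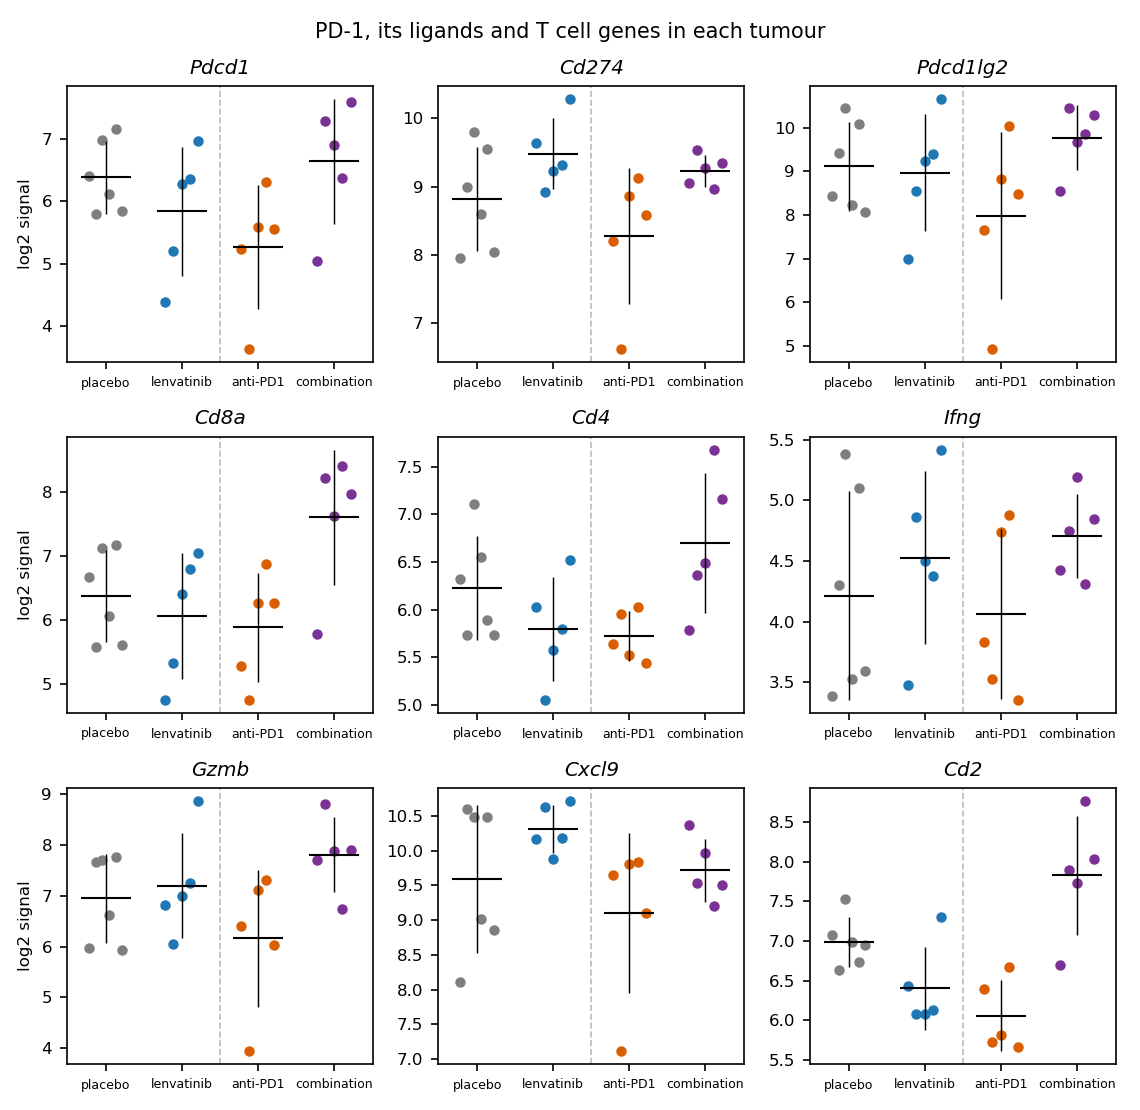
Log2 signal (y axis) of PD-1, its ligands and 6 T cell genes in each tumour (points) by arm (x axis), with the arm mean as a horizontal bar and 1 SD as a vertical line; the dashed line parts the 11 tumours without from the 10 with the antibody. For Cd2, Cd4 and Cd8a the anti-PD1 mean is the lowest of the 4 arms and the combination mean the highest, for example 6.06 and 7.83 for Cd2.

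T cell genes as a list showed no main difference beyond its error. The list of the T cell receptor complex and its lineage, 15 of 18 genes measured, differed by 0.11 ± 0.23 (95% interval -0.38 to 0.61, or 0.77-fold to 1.52-fold). Of its members 13 lay above 0 and 2 below, 0 passed, and the median of their differences was 0.14 beside -0.01 over all probe sets. Cd3g, a chain of the receptor complex, was 1 of the 2 below, at -0.50. The score ran from -1.53 to 1.70 in antibody tumours and from -0.56 to 0.64 in the others. Its difference was -0.83 ± 0.32 without lenvatinib, where all 15 members lay below 0, and 1.05 ± 0.34 with it, where all 15 lay above. Anti-PD1 tumours scored -0.39, -1.53, -0.64, -0.15 and -0.69, combination tumours -0.44, 0.90, 0.58, 1.70 and 1.12. Of the anti-PD1 tumours 3 scored below every antibody-free tumour, and of the combination tumours 3 scored above every one. The main difference was -0.0047 without combination mouse 4, -0.01 without combination mice 3 and 4, and 0.26 without combination mouse 1. At an unadjusted p under 0.05 for the difference between lenvatinib levels stood 13 of the 15, against 9.02% of all probe sets.

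Cd2, an adhesion receptor of T and NK cells, had the smallest p of that difference among the genes bright enough to be named. It read 5.67 to 8.77 (median 6.69) with the antibody and 6.08 to 7.53 (median 6.73) without. Anti-PD1 tumours read 6.39, 5.73, 5.82, 6.67 and 5.67, and combination tumours 6.70, 7.90, 7.73, 8.77 and 8.03. The main difference was 0.25 ± 0.22, made of -0.93 and 1.42, and was 0.13 without combination mouse 4. The difference of 2.35 ± 0.44 between the lenvatinib levels had an adjusted p of 0.15 in limma and was not called.

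Cd8a, a chain of the CD8 co-receptor, read 4.75 to 7.17 (median 6.40) without the antibody and 4.74 to 8.42 (median 6.57) with it. The difference was 0.53 ± 0.37 (95% interval -0.23 to 1.29), made of -0.49 and 1.54, and 7 of 10 antibody tumours lay above the mean without it. Combination tumours read 5.78, 8.23, 7.63, 8.42 and 7.98, of which 4 lay above every antibody-free tumour. The whole list of CD8 chains and cytotoxic granules nonetheless differed by -0.03 ± 0.21, with 6 of 16 members above 0 and 0 called. Beside Cd8a, its members with the smallest p were Cst7 at -0.44 and Gzmc at -0.28. Gzmb (granzyme B) differed by -0.09 ± 0.41, and by 0.19 without anti-PD1 mouse 2, and Prf1 (perforin) by 0.08 ± 0.27. Ifng read 3.39 to 5.42 without and 3.35 to 5.19 with the antibody, a difference of 0.02 ± 0.28 whose sign changed in 9 of the 21 settings that leave out 1 tumour.

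Cd4 differed by 0.20 ± 0.23, made of -0.50 and 0.90, and by 0.07 without combination mouse 4. Foxp3, the regulatory T cell factor, is unnamed here. In the list of CD4 and regulatory T cells, 10 of 12 genes measured, 7 lay above 0, and Bcl6, the factor of follicular helper T cells that many other cells also make, was at an unadjusted p of 0.026. Bcl6 read 4.79 to 6.00 (median 5.63) without and 5.35 to 6.97 (median 6.02) with the antibody. Its difference of 0.42 ± 0.18 was the same at both lenvatinib levels, 0.42 and 0.42, and 6 of 10 antibody tumours lay above every tumour without the antibody. Its adjusted p was 1.00, and in every tumour it read below the 95th percentile of the negative controls (7.35).

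Lists of T cell regulation sat near 0. Inhibitory receptors and exhaustion genes differed by 0.03 ± 0.20, with 6 of 15 above 0. Lag3 differed by 0.18 ± 0.31, Ctla4 by -0.07 ± 0.36 and Tox, a factor of exhausted T cells, by -0.01 ± 0.25. Costimulatory receptors and ligands differed by -0.02 ± 0.16 (5 of 14 above 0) and effector cytokines and activation genes by 0.01 ± 0.16 (11 of 18). Each of these lists was below 0 without lenvatinib and above 0 with it, by -0.44 and 0.49, -0.43 and 0.39, and -0.39 and 0.41. Naive and memory T cell genes differed by 0.20 ± 0.21 (7 of 10 above 0), and combination mouse 4 alone stood at 2.00, against 0.54 in the next antibody tumour. Without that tumour the difference was 0.02.

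NK cell genes, 12 of 14 measured, differed by -0.15 ± 0.18, with 3 above 0, made of -0.73 without lenvatinib, where 0 of 12 lay above 0, and 0.43 with it. Klrb1c, the NK1.1 receptor, differed by -0.42 ± 0.34.

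B cell genes had the highest score of the 52 lists after fat genes. All 13 measured of 14 lay above 0, the score differed by 0.50 ± 0.35 (95% interval -0.25 to 1.24), and 0 were called. The score ran from -0.81 to 0.09 without the antibody, while combination mice 3 and 4 scored 1.39 and 3.43 and the other 8 antibody tumours -0.65 to 0.10. The difference was -0.01 without both of them and 0.18 without combination mouse 4. They were also the highest in genes of lymphoid organ stroma and its chemokines, at 1.14 and 2.64, where the other antibody tumours all scored below 0. That list differed by 0.26 ± 0.28, by 0.0065 without combination mouse 4, and by -0.16 without the 2 tumours. One of its members, Cd209b, a lectin of lymphoid organ macrophages, had an unadjusted p of 0.043 and a difference of 0.96 ± 0.44, with 5.81 and 8.23 in those 2 tumours and at most 4.20 in all others; without them it was 0.22. Plasma cell genes differed by -0.02 ± 0.19, made of -0.46 ± 0.27 without and 0.42 ± 0.28 with lenvatinib.

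Macrophage genes split by lenvatinib as T cell genes did. The list of macrophages and monocytes, 17 of 19 measured, differed by -0.09 ± 0.25, with 4 above 0 and 0 called. Without lenvatinib the difference was -1.01 ± 0.34 and all 17 lay below 0, and with lenvatinib it was 0.82 ± 0.36 and all 17 lay above. Anti-PD1 tumours scored -0.84, -1.17, -0.71, 0.41 and -1.01 and placebo tumours -0.12 to 0.89, and combination tumours -0.48, 1.14, 0.55, 0.27 and 1.20 and lenvatinib tumours -0.69 to 0.71. The main difference was 0.03 without combination mouse 1, 0.03 without lenvatinib mouse 5 and -0.23 without anti-PD1 mouse 4. The 3 members with the smallest p were Ly6c2 at -0.37, Itgam at -0.29 and Cd163 at 0.35. Csf1r, which binds CSF-1 and keeps macrophages alive, differed by 0.14 ± 0.25, and Adgre1, a macrophage surface marker, by 0.09 ± 0.36. Both are among the 4 above 0. Genes of suppressive and lipid-associated macrophages differed by -0.17 ± 0.27 (5 of 13 above 0), and by -0.03 without combination mouse 1.

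Fc gamma receptors bind the constant part of antibodies. Their list, with complement receptors, differed by -0.17 ± 0.24 (2 of 11 above 0, 0 called), made of -1.02 with 0 of 11 above 0 and 0.67 with 10 of 11 above 0. The main difference was -0.04 without anti-PD1 mouse 2, -0.05 without lenvatinib mouse 5 and -0.29 without anti-PD1 mouse 4. Fcgr3 differed by -0.20 ± 0.26, Fcgr4 by -0.29 ± 0.42 and the inhibitory Fcgr2b by -0.15 ± 0.31. Fcgrt, the neonatal Fc receptor that recycles IgG, differed by 0.29 ± 0.21 and was the member with the smallest p (0.19).

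Slamf9, a receptor of the SLAM family found on myeloid cells, was among the genes with the smallest p. It read 6.43 to 8.31 (median 7.10) without the antibody and 5.70 to 7.64 (median 6.71) with it, a difference of -0.72 ± 0.23 (unadjusted p = 0.0049). Anti-PD1 tumours read 5.70, 5.80, 6.59, 6.86 and 5.90, below all 6 placebo tumours, which read 7.01 to 8.31. Combination tumours, 6.38 to 7.64, overlapped lenvatinib tumours, 6.43 to 8.15. The difference was -1.32 without lenvatinib and -0.11 with it.

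Dendritic cell lists averaged near 0, with 0.06 ± 0.13 for type 1 conventional dendritic cells and 0.01 ± 0.12 for the others. The first was made of -0.20 ± 0.18 without and 0.32 ± 0.19 with lenvatinib, the second of -0.30 ± 0.16 and 0.31 ± 0.17. Ccl17, a chemokine of mature dendritic cells, differed by -0.57 ± 0.29, with the same sign at both levels (-0.91 and -0.24). Neutrophil genes differed by 0.04 ± 0.19, made of -0.46 ± 0.26 without and 0.53 ± 0.27 with lenvatinib. Eosinophil genes differed by -0.13 ± 0.25, made of -0.89 ± 0.34 and 0.64 ± 0.36. Mast cell and basophil genes differed by 0.23 ± 0.18, with 8 of 10 above 0, and kept a positive sign under every alternative run (0.12 to 0.32). Mcpt4 and Tpsb2, mast cell proteases, differed by 0.60 ± 0.39 and 0.50 ± 0.32, and by 0.34 and 0.29 without placebo mouse 3. The 10 antibody tumours scored -0.28 to 0.45, all within the wider antibody-free range, which reached 0.49.

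Interferon response lists had the same sign at both lenvatinib levels. The interferon-gamma list, 17 of 22 measured, differed by -0.23 ± 0.25 (95% interval -0.76 to 0.29), with 1 of 17 above 0 and 0 called, and by -0.13 and -0.34 at the 2 levels. The negative sign held under every alternative run (-0.39 to -0.14). Antibody tumours scored -1.04 to 0.50 and the others -0.92 to 0.88. Gbp2, a guanylate-binding GTPase, differed by -0.38 ± 0.48 and Irf1, an interferon-induced factor, by -0.30 ± 0.27. The member above 0 was Ido1, a tryptophan-degrading enzyme, at 0.34 ± 0.37.

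Cxcl9, the chemokine that draws CXCR3-bearing T cells, read 8.11 to 10.7 (median 10.2) without the antibody and 7.11 to 10.4 (median 9.59) with it. The difference was -0.55 ± 0.34 (95% interval -1.26 to 0.17), with -0.50 and -0.60 at the 2 levels. Only 2 of 10 antibody tumours lay above the mean of the others. Anti-PD1 mouse 2 was the lowest at 7.11, next to 9.10, and without it the difference was -0.30. The list of lymphocyte-attracting chemokines and receptors differed by -0.21 ± 0.19, with 4 of 16 above 0. Unlike Cxcl9, this list had opposite signs at the 2 levels, -0.61 ± 0.27 without lenvatinib (2 of 16 above 0) and 0.20 ± 0.28 with it (11 of 16).

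Type I interferon-stimulated genes differed by -0.09 ± 0.16 (5 of 19 above 0). Oas1a, a sensor of double-stranded RNA, differed by -0.42 ± 0.21 at an unadjusted p of 0.060, with -0.42 at both levels, and Oasl2 by -0.39 ± 0.19 at 0.052. Mx1, also among the 3 members with the smallest p, went the other way at 0.23. For Mx1, 8 of 10 antibody tumours lay above the mean of the others. Class I antigen presentation genes differed by -0.08 ± 0.15 (4 of 13 above 0), made of -0.24 ± 0.20 and 0.09 ± 0.21. Among them B2m, the shared light chain, was at 0.03 ± 0.09. Class II genes differed by -0.03 ± 0.22, made of -0.68 with 0 of 10 above 0 and 0.62 with 10 of 10 above 0.

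Hepatocyte lineage and cell division lists showed the reverse split. Hepatocyte lineage secreted proteins, all 22 measured, differed by -0.20 ± 0.28 (4 above 0, 0 called). This was made of 0.35 ± 0.39 without lenvatinib (20 of 22 above 0) and -0.75 ± 0.405 with it (2 of 22). For the difference between lenvatinib levels, 5 of the 22 had an unadjusted p under 0.05 in limma, against 9.02% of all probe sets. The main difference was -0.06 without anti-PD1 mouse 2. Alb differed by 0.04 ± 0.64, the mean of 1.00 and -0.92. Ttr, the thyroxine carrier transthyretin, differed by -0.65 ± 0.57. Mitotic genes, 20 of 21 measured, differed by -0.16 ± 0.41. This was made of 0.52 ± 0.57, with all 20 above 0, and -0.84 ± 0.59, with all 20 below. Only 2 of the 20 had an unadjusted p under 0.05 in limma for the difference between lenvatinib levels. Their score ran from -1.69 to 1.42 with the antibody and from -1.58 to 1.20 without, and the main difference was 0.06 without anti-PD1 mouse 2. Top2a, the topoisomerase of dividing cells, differed by -0.23 ± 0.45.

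Further lists had the same pair of signs. Wnt and beta-catenin targets differed by 0.55 ± 0.35 without and -0.73 ± 0.37 with lenvatinib (main -0.09 ± 0.25). MAP kinase feedback genes differed by 0.46 ± 0.31 and -0.47 ± 0.32 (-0.01 ± 0.22), and DNA replication genes by 0.10 ± 0.35 and -0.35 ± 0.37 (-0.12 ± 0.26). For the difference between lenvatinib levels, 5 of 11, 5 of 17 and 1 of 20 members had an unadjusted p under 0.05 in limma. Cholesterol synthesis genes differed by 0.36 ± 0.16 and -0.33 ± 0.16 (0.02 ± 0.11), with 4 of 15 at that p. In that list Hmgcs1, an early enzyme of the pathway, had an unadjusted p of 0.048 for a main difference of 0.54 ± 0.26. All 5 anti-PD1 tumours read 6.19 to 7.16 against a placebo mean of 5.61 ± 0.79 (SD, n = 6), while combination tumours read 5.02 to 6.23 against a lenvatinib mean of 5.88 ± 0.68 (SD, n = 5). Hmgcs1 is 1 of 7 of the 679 measured list genes (1.03%) at that threshold, beside 1.52% of all probe sets. Integrated stress and hypoxia genes differed by -0.13 ± 0.16 and -0.10 ± 0.17.

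**Figure D4:**
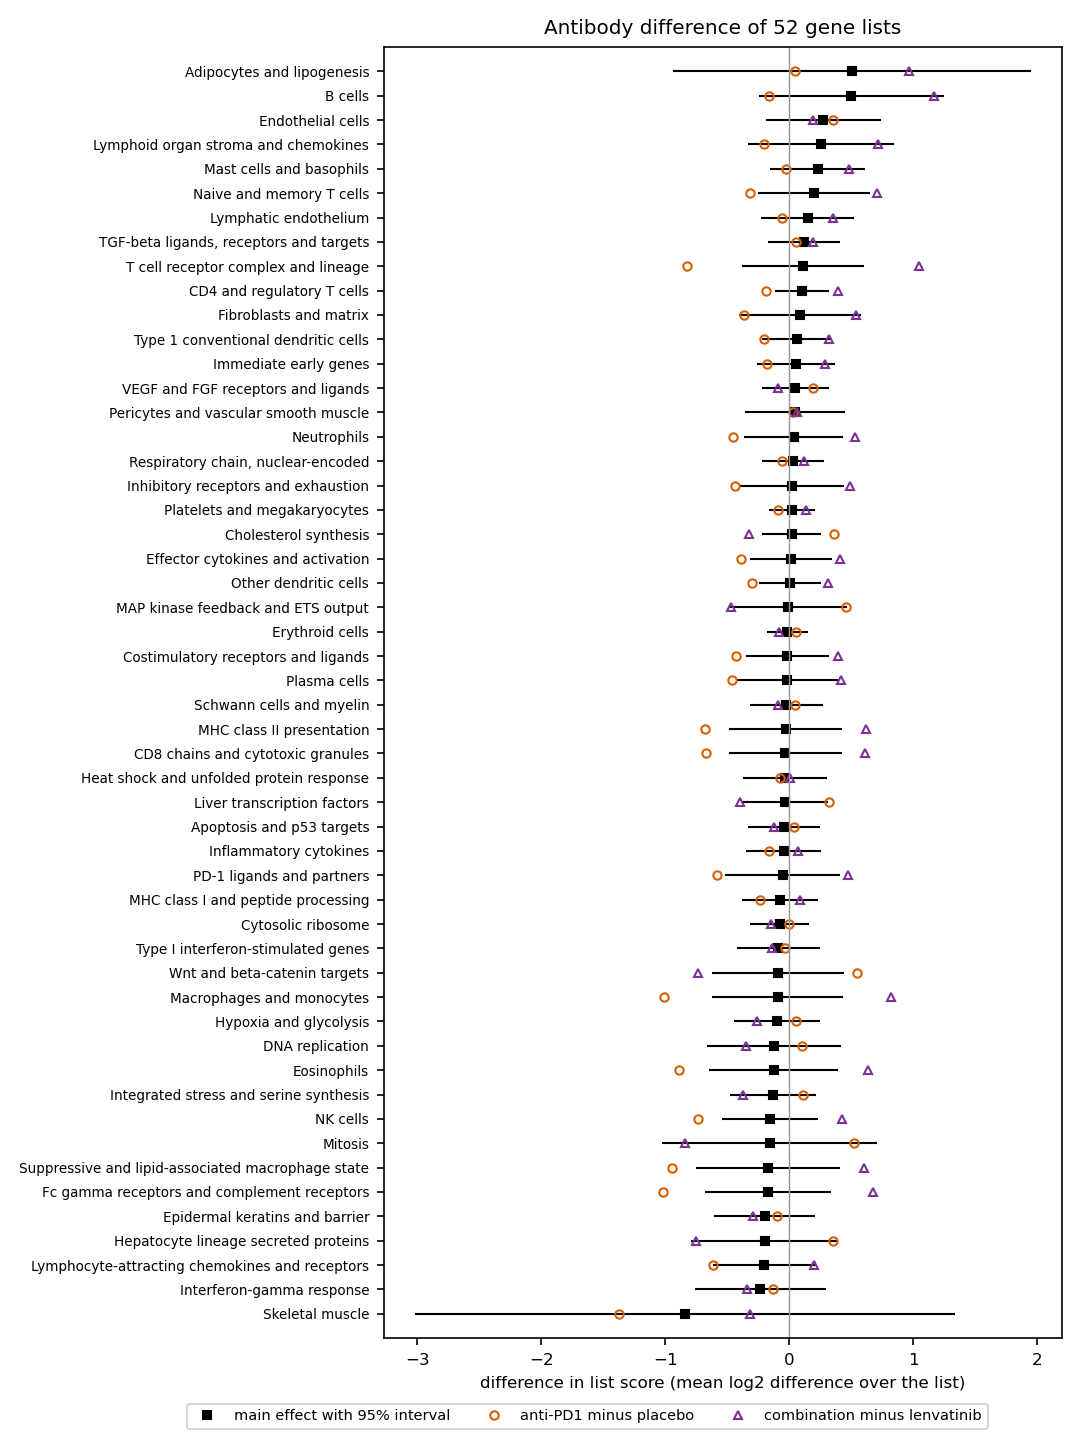
Antibody difference in list score (x axis, mean log2 difference over the list) for 52 gene lists (y axis): black squares are the main effect with its 95% interval, orange circles anti-PD1 minus placebo, purple triangles combination minus lenvatinib. All 52 intervals of the main effect include 0, and for 30 lists the circle lies below 0 and the triangle above.

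Over all 52 lists the main difference was small beside the spread between tumours. For 48 lists the 95% interval lay within 2-fold, and for 29 the difference was under 0.1. Leaving out 1 tumour at a time changed the sign for 29 of the 52 lists, and for each of the 52 at least 1 tumour changed the sign or moved the difference by over 1.5 times. Leaving out anti-PD1 mouse 2 did so for 40 lists, lenvatinib mouse 5 for 34 and combination mouse 1 for 31. Of 191 named genes, 15 changed sign and 136 changed sign or moved by that much without some 1 tumour. In no list did the difference exceed the SD within arms, and at most it was 0.62 of it. The antibody difference was lower without and higher with lenvatinib for 30 lists, the reverse for 13, higher in both for 4 and lower in both for 5. At an unadjusted p under 0.05 for the difference between lenvatinib levels stood 165 of the 679 list genes (24.3%), beside 9.02% of all probe sets. Lists were chosen with earlier results of these data known, so these counts describe them and are no independent support.

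Endothelial genes had the highest score of the lists that lay above 0 at both lenvatinib levels, apart from fat genes. The list, 20 of 21 measured, differed by 0.27 ± 0.22 (95% interval -0.19 to 0.74), with 18 above 0 and 0 called, made of 0.36 and 0.19. Erg, a transcription factor of endothelium, read 3.54 to 5.40 (median 4.88) without and 3.32 to 6.81 (median 5.43) with the antibody, a difference of 0.63 ± 0.32 (unadjusted p = 0.059). For Erg, 6 of 10 antibody tumours lay above every tumour without the antibody, but all values were below the 95th percentile of the negative controls (7.35). Kdr, the VEGF receptor that lenvatinib inhibits, differed by 0.62 ± 0.44, by 0.38 without anti-PD1 mouse 2 and by 0.25 without combination mice 3 and 4. The score of anti-PD1 mouse 2 was 1.24, and the list differed by 0.16 without that tumour and by 0.16 without combination mice 3 and 4. TGF-beta genes (0.12 ± 0.14) and pericyte and smooth muscle genes (0.05 ± 0.19) also had scores above 0 at both levels. Of the 13 pericyte and smooth muscle genes 6 lay above 0 and 7 below, the median of their differences was -0.04, and the score was -0.08 without anti-PD1 mouse 2. Myh11, smooth muscle myosin, was at 0.41 ± 0.20 and Cspg4, a pericyte proteoglycan, at -0.25. Fibroblast and matrix genes differed by -0.37 and 0.54 (main 0.09 ± 0.23).

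Skeletal muscle and fat genes gave the lowest and the highest score with the widest intervals. All 19 muscle genes lay below 0, and the score differed by -0.84 ± 1.03 (95% interval -3.02 to 1.34). Of the 12 probe sets that were 2-fold or more lower with the antibody, Myh4, Myh8, Atp2a1, Tnni2, Tnnc2, Mylpf, Mstn and Apobec2 are muscle genes. Myh4, a fast myosin, read 3.02 to 11.9 (median 3.99) without and 3.05 to 11.6 (median 3.55) with the antibody, a difference of -1.82 ± 1.54. The score was 2.95 and 4.42 in the 2 antibody tumours rich in muscle genes and 3.56 to 3.78 in the 3 without the antibody, and placebo mouse 3 and lenvatinib mouse 2 followed at 1.11 and 0.82. Without combination mice 3 and 4 the list differed by -0.39, and without anti-PD1 mouse 2 by -1.28. Fat cell genes differed by 0.50 ± 0.68, with 14 of 14 above 0 and scores from -2.26 to 2.93 in antibody tumours. Their difference was 0.23 without anti-PD1 mouse 2, 0.86 without anti-PD1 mouse 5 and 0.21 without combination mice 3 and 4.

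Among genes above the background of the negative controls, 12 were named in each direction by their p, smallest first, and none of these 24 passed. The 12 higher with the antibody had differences of 0.26 to 0.54 and unadjusted p of 0.012 to 0.045, and 11 had 1 sign at both lenvatinib levels. Hnrnpul2, an RNA-binding nuclear protein, read 7.48 to 8.10 (median 7.91) without and 7.88 to 8.37 (median 8.22) with the antibody, a difference of 0.29 ± 0.12. All 10 antibody tumours lay above the mean of the others, and 6 lay above every one of them. Get1, a receptor for the insertion of tail-anchored membrane proteins, differed by 0.31 ± 0.12 (0.28 and 0.33), and Heatr5a by 0.47 ± 0.17 (0.60 and 0.34).

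Clpx, the unfoldase of the mitochondrial protease ClpXP, differed by 0.37 ± 0.14, Dnajc9, a histone chaperone, by 0.53 ± 0.22 and Dyrk1a, a protein kinase, by 0.42 ± 0.17. Mfsd14b, Vamp2, Tm9sf1, Ubald1 and Anxa6 differed by 0.26 to 0.41. Fyn, a Src-family kinase of T cells and other cells, was the exception: its 0.54 ± 0.24 was made of -0.31 and 1.39. Combination tumours read 6.78, 7.70, 7.59, 7.96 and 7.86 for Fyn, and the antibody-free tumours 4.99 to 7.43.

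The 12 lower with the antibody had differences of -1.49 to -0.21 and unadjusted p of 0.0028 to 0.039. Adtrp, a lipid hydrolase that regulates tissue factor pathway inhibitor, had the smallest p of all genes named by this rule. It read 5.95 to 8.87 (median 7.24) without and 4.09 to 7.65 (median 6.51) with the antibody, and differed by -1.01 ± 0.30. Placebo tumours read 8.87, 8.67, 7.24, 7.05, 7.95 and 7.10, anti-PD1 tumours 6.82, 7.65, 7.37, 7.24 and 6.54. Lenvatinib tumours read 5.95, 7.63, 6.94, 6.93 and 7.27, and combination tumours 6.48, 5.64, 6.24, 5.61 and 4.09. Every anti-PD1 tumour was below the mean of placebo and all 5 combination tumours below the lenvatinib mean, yet both pairs of arms overlapped.

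Sbsn (suprabasin) and Dmkn (dermokine) are secreted epidermal proteins encoded side by side. Sbsn read 7.01 to 9.94 (median 8.60) without and 6.45 to 9.19 (median 7.33) with the antibody, a difference of -1.05 ± 0.34 (-0.71 and -1.39). Dmkn differed by -1.49 ± 0.68 (-0.44 and -2.53), with values of 3.89 to 8.21 with and 4.00 to 10.1 without the antibody. The epidermal list as a whole differed by -0.20 ± 0.19 with 4 of 14 above 0 (-0.05 without lenvatinib mouse 2), and the basal keratin Krt5 by -0.03 ± 0.36. Ccdc34, Mapkapk2, Dusp19, Crb3, Scnm1, Sec62, Ccdc58 and Timm17a differed by -0.55 to -0.21. Mapkapk2, a kinase downstream of p38, read 9.38 to 9.73 without and 8.88 to 9.70 with the antibody. Crb3, an epithelial polarity protein, differed by 0.01 without and by -1.10 with lenvatinib.

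**Figure D5:**
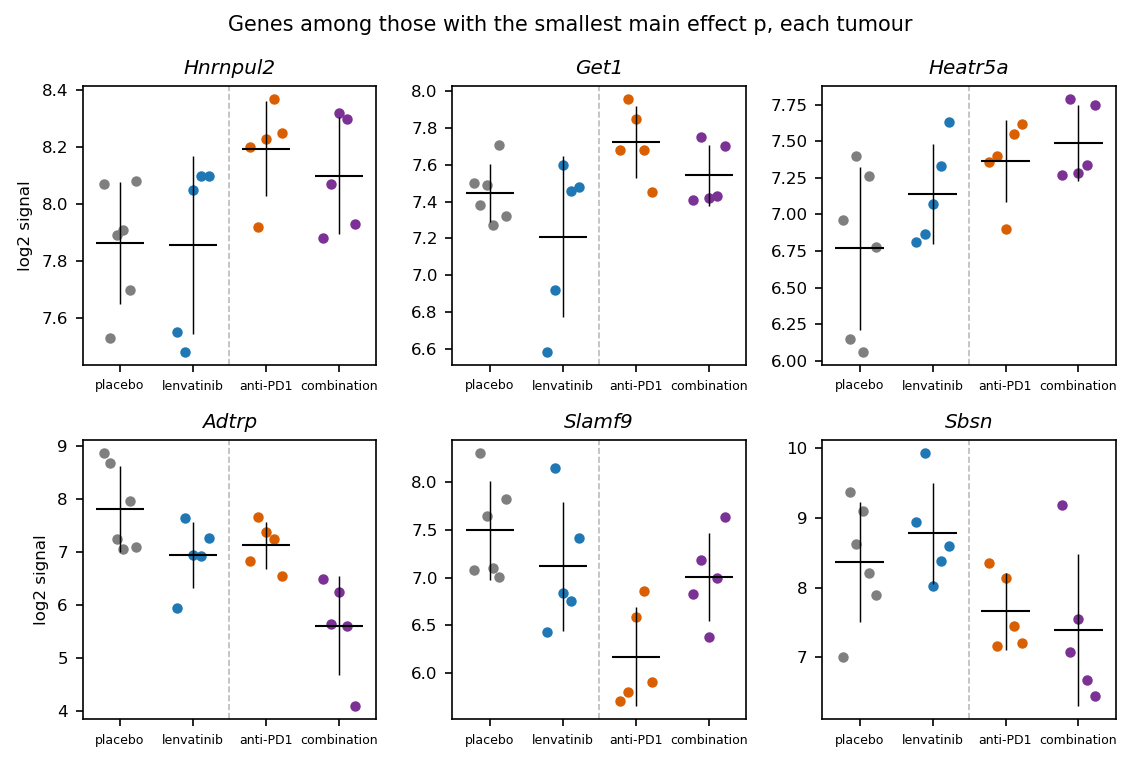
Log2 signal (y axis) in each tumour (points) by arm (x axis) of 3 genes higher and 3 lower with the antibody, with arm means as horizontal bars and 1 SD as vertical lines; the dashed line parts antibody-free from antibody tumours. The groups overlap in every panel, and the main differences are 0.29 for Hnrnpul2, 0.31 for Get1, 0.47 for Heatr5a, -1.01 for Adtrp, -0.72 for Slamf9 and -1.05 for Sbsn.

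The genes with the smallest p for the difference between lenvatinib levels had main differences of -0.40 to 0.25. The 6 with a positive difference between the levels were Cd2, Cd7, Rac2, Clec12a, Coro1b and Ms4a6b, of which Coro1b, an actin regulator, is broadly expressed and the others mark blood cells. Their differences between levels were 1.29 to 4.78, all at an adjusted p of 0.15 in limma, and their main differences -0.10 to 0.25, of which all but that of Cd2 changed sign when some 1 tumour was left out. Clec12a, an inhibitory lectin of myeloid cells, was the most extreme, at -2.50 without lenvatinib and 2.29 with it. Placebo tumours read 8.14, 6.29, 8.25, 8.62, 6.46 and 9.16 for Clec12a and anti-PD1 tumours 5.15, 4.19, 4.83, 7.36 and 5.09. Lenvatinib tumours read 5.14, 4.53, 5.33, 6.13 and 7.79, and combination tumours 6.32, 8.85, 8.36, 7.61 and 9.22. The arm means were 5.32 for anti-PD1 beside 5.78 for lenvatinib, and 8.07 for combination beside 7.82 for placebo. Rac2, a GTPase of blood cells, was at -1.36 and 1.24.

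The 6 with a negative difference between the levels were Nav3, Slc44a3, Lmo7, Slc44a1, Pcsk6 and Arhgap35, at -3.06 to -0.998, with adjusted p of 0.19 to 0.20 in limma. Lmo7, a protein of epithelial junctions, was at 1.38 without and -1.68 with lenvatinib. It read 5.47, 7.03, 6.76, 4.46, 7.56 and 5.22 in placebo and 6.42, 7.19, 7.82, 7.69 and 8.19 in anti-PD1 tumours. It read 7.53, 7.79, 7.92, 7.98 and 7.62 in lenvatinib and 7.68, 6.29, 6.72, 5.85 and 3.90 in combination tumours. Slc44a3, a choline transporter-like protein, was at 0.52 and -1.27.

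Just 5 of 22206 probe sets reached an unadjusted p under 0.05 with 1 sign at both lenvatinib levels, and all 5 lay below the level set for naming. They are given here because the count is small. Higher with the antibody were Cd46, a complement regulator (0.53 ± 0.15), Elane, neutrophil elastase (0.53 ± 0.15), and Tfrc, the transferrin receptor (0.65 ± 0.22). Lower were the predicted gene Gm829 (-0.36 ± 0.10) and Lsm11, a factor of histone mRNA processing (-0.54 ± 0.17). Elane read 4.89 to 6.01 (median 5.34) without and 5.43 to 6.29 (median 5.83) with the antibody, and had the smallest unadjusted p of all probe sets (0.0016). Cd46 read 3.60 to 4.47 without and 3.89 to 5.03 with the antibody, near the median of 4.08 of the negative controls. The groups overlapped for each of the 5.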

How the data were processed

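RNA from 21 tumours, each from its own mouse, was hybridized to 1 array each. The authors deposited log2 signals per probe set, made with RMA and oligo per the submitters' processing notes; no version or genome build is stated (not given in the sources used here). RMA includes quantile normalization, so a shift common to all genes cannot be seen. Of 29129 rows, 6923 controls were left out and 22206 tested; 19572 had 1 gene symbol in the platform annotation, 0 several and 2634 none. limma 3.58.1 in R 4.3.3 (lmFit, eBayes) fitted 4 arm means over 21 arrays, two-sided, with Benjamini-Hochberg adjustment. The script was tested on simulated data.

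Genes counted as named were chosen by 2 kinds of rule. Above the 95th percentile of 5222 negative control rows (7.35), which 17052 probe sets (76.8%) missed in every arm, these were the 12 smallest p per direction of the main effect where none passed, up to 8 per direction with 1 sign and unadjusted p under 0.05 at both lenvatinib levels (none qualified), and the 6 smallest p per sign of the difference between levels. At any level, they were the 3 smallest p of each list and PD-1 pathway genes. Of the 191 genes these rules named, 91 lay below that level in every arm or had a provisional name. Not all of them are described. Further list members, such as Csf1r, Lag3, Gbp2 and Alb, were picked as examples outside the rules. Counts over the 191 named genes do not cover these examples. The 52 lists hold 747 genes, 679 measured. The comparison, members and lists were chosen with earlier results of these data known. Mouse numbers recur across arms: over 30 pairs of tumours with the same number, deviations from arm means correlated at -0.63 to 0.56 (median 0.10), so numbers were not taken as pairs. Alternatives were the block, array weights, trend and robust eBayes, cyclic loess, an additive model, a filter on dim probe sets, the control signal as a covariate, and tumours left out.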

Additional observations from a re-analysis of the deposited data

Results flagged for a closer look

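In 26 of 300 groups of tumours tested (8.67%), 1 tumour stood apart from the rest of its group by Dixon's test, where chance gives about 1 in 20. No probe set differed between the lenvatinib levels at an adjusted p under 0.05 in limma, where 2002 did at an unadjusted p under 0.05. In 0 lists were all tumours of the 2 levels opposed, in a comparison between arms and not of paired tumours. No explanation was tested for any of these.

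Anti-PD1 mouse 2 was lowest among the antibody tumours for Cxcl9 (7.11, next 9.10, also within its arm), Cd274 (6.62, next 8.20), Pdcd1lg2 (4.92, next 7.65) and the inflammatory cytokine score (-0.93, next -0.12, also within its arm). It was highest in its arm for skeletal muscle genes, at 2.95.

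Combination mouse 4 was highest among the antibody tumours for B cell genes (3.43), naive and memory T cell genes (2.00, next 0.54) and lymphatic endothelium (1.40, next 0.22, also within its arm). Within the combination arm, mouse 2 was highest for skeletal muscle (4.42) and mouse 3 for the interferon-gamma response (0.49, next 0.02). Combination mouse 1 was lowest for inhibitory receptors (-0.43, next 0.47) and class I presentation (-0.21, next 0.16), and highest for cytosolic ribosome genes (0.43).

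Lenvatinib mouse 5 stood apart by Dixon's test, as the highest in its arm, for 5 immune lists: T cell receptor genes (0.56, next -0.44), CD8 and cytotoxic granules (0.85), Fc gamma receptors (0.79), other dendritic cells (0.32) and lymphocyte-attracting chemokines (0.83). Lenvatinib mouse 2 was highest for epidermal genes (1.21). Among placebo tumours, mouse 3 was highest for type 1 dendritic cells (0.44) and mouse 1 for Schwann cell genes (0.77). Among anti-PD1 tumours, mouse 4 was highest for CD4 and regulatory T cells (0.08, next -0.19) and mouse 1 lowest for heat shock genes (-0.97, next 0.02).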

How the results depend on the processing

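No probe set passed for the main effect under any of the 32 alternatives, with a smallest adjusted p of 0.935 in limma. Of 1352 list values under alternatives, 1351 moved by less than the spread between replicates, the exception being erythroid genes (0.16 with the filter on dim probe sets), and 17 of 52 lists never changed sign. Of 191 named genes, 31 changed sign at least once. Main-effect probe sets at an unadjusted p under 0.05 numbered 716 with array weights, 529 with the control covariate, 863 without the bright arrays and 138 with the filter, and 237 to 742 leaving out 1 tumour (742 without anti-PD1 mouse 1). Without lenvatinib they numbered 1862, 1409 and 1484 in the first 3 of these settings, and 672 to 1652 leaving out 1 tumour. With lenvatinib, 707 passed with array weights, and 0 to 1 leaving out 1 tumour; at the unadjusted threshold there were 4692 with weights, 2761 without bright arrays, 777 without muscle-rich tumours, 927 without combination mice 3 and 4, and 789 to 2823 leaving out 1 tumour. For the difference between levels, 1691 passed with weights and 0 to 320 leaving out 1 tumour; unadjusted, 5272 with weights and 3237 without bright arrays. The correlation between levels was -0.35 without bright arrays and -0.59 to -0.28 leaving out 1 tumour. Probe sets past p in both with opposite signs numbered 384 without bright arrays, 66 without muscle-rich tumours and 127 to 426 leaving out 1 tumour; those with the same sign 28, 3 and 2 to 10, with 8 under cyclic loess and 0 without combination mice 3 and 4. Groups did not overlap for 9 of 22206 probe sets without bright arrays, a setting with fewer tumours to separate, and the number due to chance was not computed. The cause of these shifts was not tested. With the mouse number as a replicate block, 0 passed for the main effect and 385 were at an unadjusted p under 0.05, and no call changed. The number of arrays limits what could be seen, as do the 76.8% of probe sets below the 95th percentile of the negative controls in every arm.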

Other observations

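Neutrophil granule genes, chosen after Elane and Ngp were seen, differed in both directions. Ngp read 3.36 to 5.13 (median 3.80) without and 3.58 to 7.98 (median 4.40) with the antibody, a difference of 1.29 ± 0.49 (SE). Camp, a cathelicidin, differed by 0.78 ± 0.43, Ltf (lactoferrin) by 0.73 ± 0.39 and Lcn2 (lipocalin 2) by 0.78 ± 0.56. The highest Ngp values were in anti-PD1 mice 1 and 5 (7.98 and 7.64) and combination mice 4 and 3 (6.28 and 5.95). These 4 lay above every antibody-free tumour. Camp was highest in anti-PD1 mouse 1 (8.50), then anti-PD1 mouse 5 (6.74) and combination mouse 4 (6.35), beside at most 6.09 without the antibody. Ltf was highest in anti-PD1 mouse 4 (8.48, next 6.30). The array of anti-PD1 mouse 1 had bright controls. Lcn2 differed by -0.24 without lenvatinib and by 1.79 with it. Mpo (myeloperoxidase) differed by 0.19 ± 0.14, Ctsg (cathepsin G) by 0.18 ± 0.13, Fcnb (ficolin B) by 0.13 ± 0.14 and Prtn3 (proteinase 3) by 0.02 ± 0.17. Arm means of Mpo were 3.99 to 4.28, near the median of 4.08 of the negative controls, and those of Ctsg and Fcnb lay below it. Mmp8, a collagenase, differed by -0.04 ± 0.39 and Cd177, a surface protein, by -0.14 ± 0.15. Among genes of mature neutrophils, S100a8 differed by -0.22 ± 0.45, S100a9 by -0.19 ± 0.39, Retnlg by -0.58 ± 0.33, the chemokine receptor Cxcr2 by 0.01 ± 0.25 and the G-CSF receptor Csf3r by 0.20 ± 0.29. None of these had an adjusted p under 0.05 in limma.

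The antibody-treated tumours held both the highest and the lowest value for 6245 probe sets (28.1%), and the antibody-free tumours for 20.2%. They did so for 29 of 52 list scores, against 8 for the antibody-free tumours. Anti-PD1 mouse 2 was the lowest of all tumours in 23 lists, and combination mouse 4 the highest in 10.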
